A study of Papio anubis with 12 samples.

Results

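The enzymes that make cholesterol and the proteins that sense, store, move and clear sterols were examined as a set of 28 genes. The genes were listed by name, with earlier results of these data known. A gene counted as measured where a probe set, a group of short probes on the array for 1 transcript, carried its symbol and no other. By this rule 26 of the 28 genes were measured, with 52 of the 54613 probe sets tested, among 19775 genes measured in all. FDFT1 (squalene synthase) and CYP51A1 (lanosterol demethylase) were not analysed here, because no probe set carried their symbol alone. Where a gene had several probe sets, the one with the highest mean signal over all arrays stands for the gene, and the others are described after the role groups.

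The samples were precentral gyrus, the motor area of the cerebral cortex, from 12 olive baboons (Papio anubis) that were raised from birth on a formula assigned at random, for 12 weeks. Formula C held neither DHA (docosahexaenoic acid) nor ARA (arachidonic acid), and was fed to 2 males and 2 females that were 83 to 85 days old at necropsy. Formula L held 0.33% DHA and 0.67% ARA and was fed to 1 male and 3 females of 84 to 87 days. Formula L3 held 1.00% DHA and 0.67% ARA and was fed to 0 males and 4 females of 83 to 84 days. L/C therefore changes both fatty acids, L3/C changes both with more DHA, and L3/L changes DHA alone. RNA of each animal was hybridized to 1 Affymetrix HG-U133 Plus 2.0 array, whose probes were designed on human transcripts. Whole tissue was used, so fewer cells of a type and less RNA per cell cannot be told apart.

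Cholesterol is made from acetyl-CoA in a long chain of steps in the endoplasmic reticulum. The mevalonate steps give isoprenoid units, these are joined to squalene, squalene is closed to a sterol ring, and the ring is trimmed and reduced to cholesterol. When membranes are low in sterol, SCAP escorts the SREBP transcription factors to the Golgi for cleavage and the freed part switches on the genes of the pathway, whereas INSIG proteins hold the complex back when sterol is plentiful. The brain makes nearly all of its own cholesterol because lipoproteins do not cross the blood-brain barrier, demand is highest while myelin forms, and excess leaves as an oxysterol made by CYP46A1.

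The summed signal of neuron markers (12 of 12 measured) was 73104 to 141610 per array. That of markers of myelinating oligodendrocytes (11 of 12) was 6860 to 20350. No measured marker of any listed cell type, blood and meninges included, was at 0 on any array. A signal above 0 therefore does not tell which cells were present. Animal 1 of each formula had the highest ratio of 3′ to 5′ signal of ACTB, a measure of RNA degradation and of the reach of labelling, with 12.1 in C, 11.0 in L and 72.3 in L3, against 0.904 to 6.24 on the other 9 arrays. The hybridization controls, bacterial transcripts added in fixed amounts, averaged 13.22 and 13.52 on the log2 scale in animals 2 and 3 of L3, 12.63 in animal 1 of L3 and 12.69 in animal 1 of L. They averaged 10.43 to 12.32 on the other 8 arrays. These values are repeated below where a result rests on the same arrays.

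Levels below are quantile normalized log2 values of the deposited signal plus 16, given for each array in the order of the animal numbers. Differences are on the same log2 scale with the standard error (SE) of limma, and a positive one means a higher level in the formula named first. Limma p values are unadjusted unless called adjusted, where the adjustment is by Benjamini-Hochberg over all probe sets. The exact permutation test compares 4 arrays with 4 others, is two-sided and cannot go below 0.0286.

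No measured gene had an adjusted p under 0.05 from limma in any comparison of formulas, and few passed the unadjusted threshold of 0.05. In L/C, 0 of 26 genes did, against 0.895% of all genes higher and 1.23% lower. In L3/C, 0 were higher and 1 was lower, HSD17B7, against 1.72% of all genes higher and 2.21% lower. In L3/L, 1 was higher, INSIG2, and 0 were lower, against 2.61% and 2.55% of all genes. The counts of 0 and 1 in 26 genes are near these background shares. The F test among the 3 formulas gave 0 of 26, against 3.31% of all genes. The arrays of the formulas overlapped for all 26 genes in each comparison, whereas they did not overlap for 2.04% of all genes in L/C, 2.15% in L3/C and 2.55% in L3/L. Over the 52 probe sets, the smallest adjusted p from limma was 1.0 in L/C, 0.999 in L3/C and 0.891 in L3/L. Among all probe sets the share with an adjusted p under 0.05 was 0.0% in L/C, 0.0% in L3/C and 0.0% in L3/L. The 3 comparisons share arrays with each other, so their values for a gene are not independent.

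The differences were centred near 0. The median over the 26 genes was 0.06 in L/C, where 14 were higher, 0.06 in L3/C, where 14 were higher, and −0.06 in L3/L, where 11 were higher. Over all genes the medians were −0.03, −0.03 and −0.00 for the same comparisons, and 46.6%, 46.9% and 49.9% of genes were higher. The precision was modest. The 95% interval of a difference reached a median of 0.84 to either side of its estimate, and it lay wholly between −1 and 1, that is within 2-fold, for 10 genes in L/C, 8 in L3/C and 7 in L3/L. For the other genes the interval reached a 2-fold difference or more. SCAP was the gene with the narrowest intervals, from −0.40 to 0.54 in L/C and from −0.48 to 0.45 in L3/C.

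**Figure D1:**
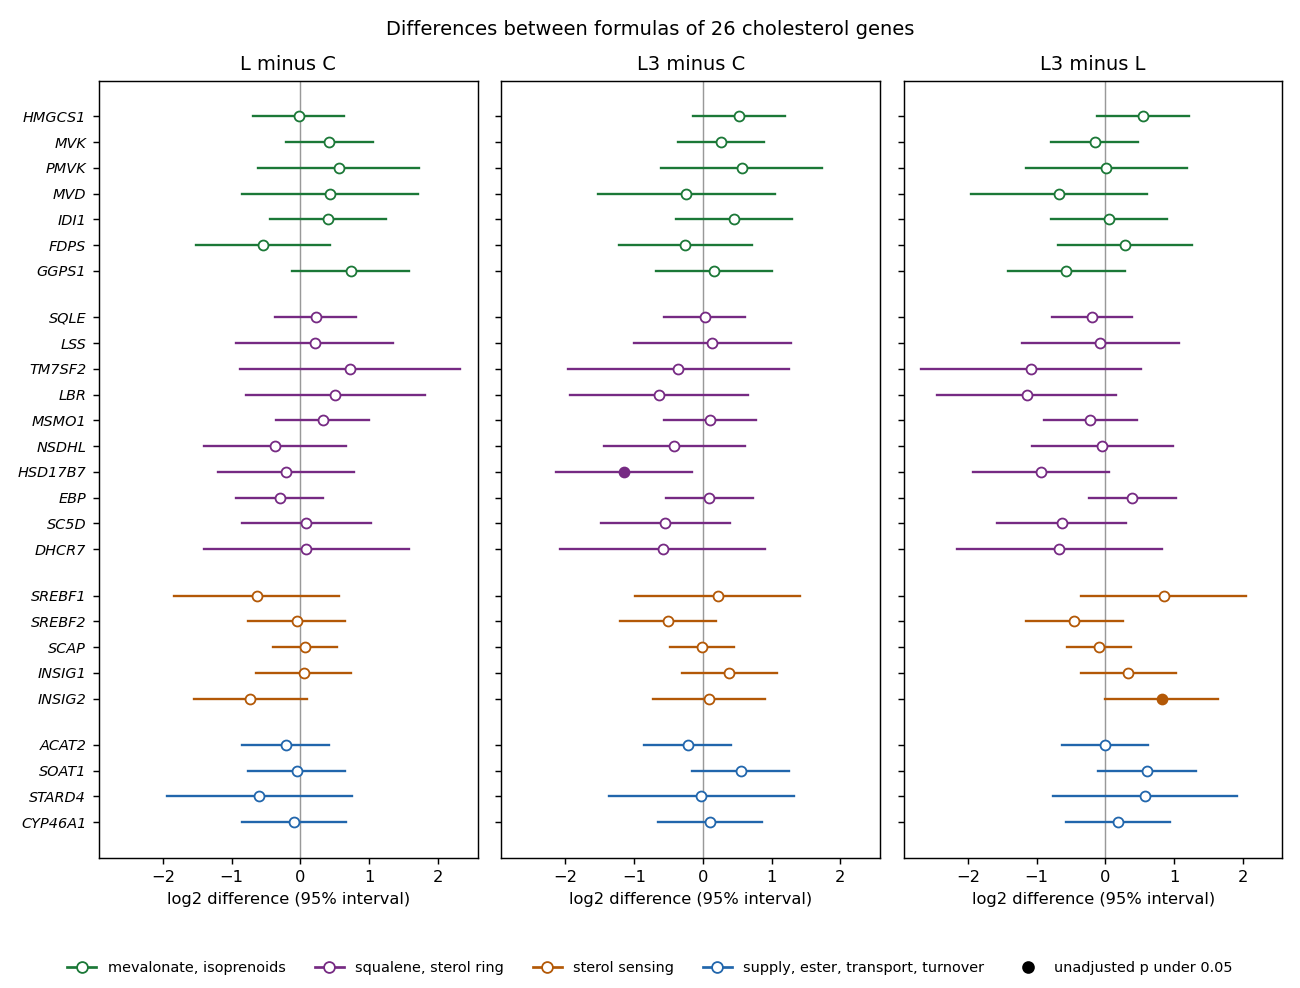
Log2 differences between formulas (horizontal axis) of the 26 measured genes, grouped and coloured by role, with L minus C, L3 minus C and L3 minus L from left to right. Points are limma estimates, lines are 95% intervals and filled points have an unadjusted p under 0.05, which are HSD17B7 in L3 minus C and INSIG2 in L3 minus L.

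The mevalonate and isoprenoid genes (7 of 7 measured) had medians of 0.42 in L/C, 0.26 in L3/C and 0.01 in L3/L, with 5, 5 and 4 of the 7 higher and 0 past the threshold in each. HMGCS1, the cytosolic synthase that makes HMG-CoA, measured 10.98, 10.55, 10.08 and 9.71 in C, 10.87, 10.48, 9.70 and 10.15 in L and 11.27, 11.02, 10.85 and 10.27 in L3. Animals 1 and 2 of L3 were above all C and L animals, and animals 3 and 4 of L3 lay among them. HMGCS1 was higher by 0.53 ± 0.32 (SE) in L3/C (p = 0.115, exact permutation p = 0.171) and by 0.55 ± 0.32 in L3/L (p = 0.0986, exact permutation p = 0.171), and these differences did not pass the threshold. In L3/C it was 0.74 without animal 1 of C and 0.72 without animal 4 of L3, both past the threshold, and 0.32 without animal 4 of C. The difference in L/C was −0.03. A second set, 205822_s_at, measured 10.58, 10.50, 9.60 and 10.37 in C, 10.59, 10.09, 10.20 and 10.55 in L and 9.28, 10.52, 10.73 and 10.16 in L3. It gave −0.09 in L3/C and −0.18 in L3/L, with animal 1 of L3, the highest of the 12 in the brighter set, lowest of the 12. In each formula animal 1, which had the highest ACTB ratio of its group, also had the highest HMGCS1 level in the brighter set. With that ratio as a covariate in the fit the difference was 0.36 in L3/C and 0.215 in L3/L. Over all alternative fits it ran from 0.206 to 0.742 in L3/C and from 0.008 to 0.745 in L3/L.

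MVK, the kinase that acts on mevalonate, measured 9.94, 10.04, 9.33 and 9.89 in C, 11.10, 9.64, 10.19 and 9.94 in L and 10.30, 10.03, 10.18 and 9.73 in L3. Animal 1 of L stood above the other 11 arrays, and without it the L and C animals overlapped over most of their range and the difference in L/C was 0.12. The difference in L/C was 0.42 ± 0.30 (p = 0.179, exact permutation p = 0.314), among the 3 smallest p values of the set in that comparison. GGPS1 makes geranylgeranyl diphosphate, the donor for protein prenylation, and is on a side branch of the sterol route. It measured 8.35, 7.08, 8.88 and 8.32 in C, 8.63, 9.33, 8.63 and 8.95 in L and 7.86, 8.66, 7.95 and 8.81 in L3. All 4 L animals were above 3 of the 4 C animals, and animal 3 of C lay inside the L range. GGPS1 was higher by 0.73 ± 0.40 in L/C (p = 0.086, exact permutation p = 0.0857), with a difference of 0.16 in L3/C and −0.57 in L3/L. The L/C difference was 0.37 without animal 2 of C, and 0.97 and past the threshold without animal 3 of C.

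The other genes of these steps gave wide intervals. PMVK, the next kinase, averaged 7.89 ± 1.40 (SD, n = 4) in C, 8.44 ± 0.67 in L and 8.45 ± 0.20 in L3, with animals 1 and 2 of C at 6.59 and 6.77 and animals 3 and 4 at 9.12 and 9.06. MVD, which forms isopentenyl diphosphate, averaged 6.77 ± 1.13 in C, 7.20 ± 0.21 in L and 6.53 ± 0.93 in L3. Both genes varied more among the animals of a formula than between the formula means. IDI1, the isomerase of the isoprenoid unit, averaged 8.06 ± 0.74 in C, 8.46 ± 0.53 in L and 8.51 ± 0.20 in L3. FDPS, farnesyl diphosphate synthase, averaged 9.23 ± 0.20 in C, 8.69 ± 1.22 in L and 8.97 ± 0.39 in L3. Its low L mean came from animal 1 of L at 6.89. Animal 2 of C was lowest of its formula for MVD, IDI1 and GGPS1, and the mean of the 7 genes in that animal lay 0.77 below their mean over 12 arrays, against −0.17 to 0.34 elsewhere. Leaving out animal 2 of C put the median of the list at 0.05 for L/C and at 0.10 for L3/C.

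**Figure D2:**
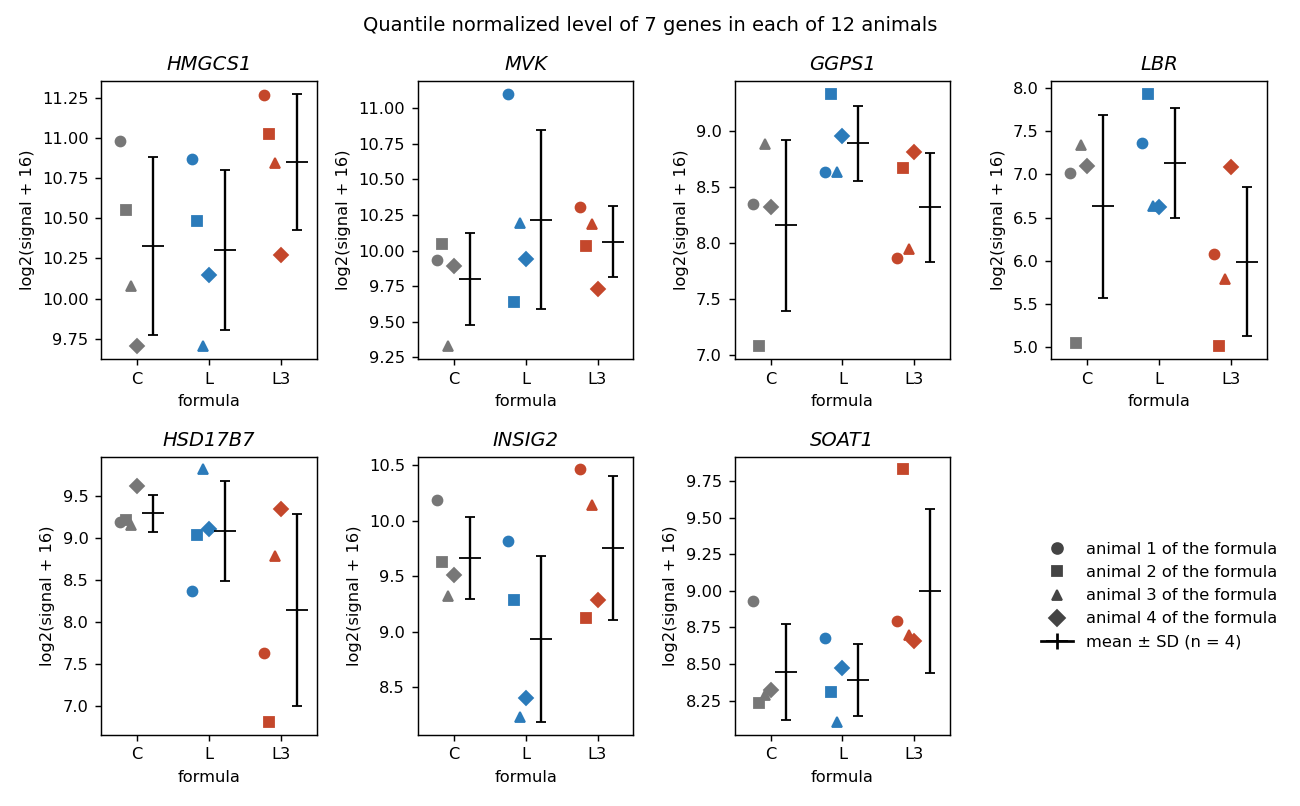
Quantile normalized log2(signal + 16) (vertical axis) of 7 genes in each of 12 animals, by formula C, L and L3, with a symbol for each animal number and the mean ± SD of 4 animals in black. The formulas overlap for all 7 genes, and HSD17B7 is low in animals 1 and 2 of L3 but not in animal 4.

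The squalene and sterol ring genes (10 of 12 measured) had the role group median farthest from 0 in L3/C and L3/L. It was −0.39 in L3/C, with 4 of 10 higher, and −0.43 in L3/L, with 1 of 10 higher, while it was 0.15 in L/C, with 7 of 10 higher. Of the 10 genes, 1 passed the threshold in L3/C and 0 passed in L/C and L3/L, so the medians are a description of the group. HSD17B7 carries out the keto reduction that completes removal of methyl groups from the ring. It measured 9.19, 9.21, 9.14 and 9.61 in C, 8.37, 9.03, 9.81 and 9.11 in L and 7.63, 6.80, 8.78 and 9.34 in L3. Animals 1, 2 and 3 of L3 were below all C animals, and animal 4 of L3 lay inside the C range. In deposited signal this was 352 ± 247 (SD, n = 4) in L3 and 624 ± 132 in C. HSD17B7 was lower by 1.15 on the log2 scale in L3/C (difference −1.15 ± 0.47, p = 0.0253, adjusted p = 0.999 from limma, exact permutation p = 0.114). In L3/L the difference was −0.94 (p = 0.0609, exact permutation p = 0.2) and in L/C it was −0.21. The L3/L difference passed the threshold in 6 of the 27 alternative fits, among them without animal 1 of L (−1.18), animal 3 of L3 (−1.16) or animal 4 of L3 (−1.34). It was nearer 0 and did not pass with age (−0.24), the hybridization controls (−0.485) or the ACTB ratio (−0.56) as a covariate. The same held without animal 2 of L3 (−0.495).

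The 3 low animals of L3 were also those with hybridization controls of 12.63 to 13.52, against 10.43 in animal 4 of L3. With the controls as a covariate the L3/C difference of HSD17B7 was −0.81 and no longer passed the threshold, and with the ACTB ratio as a covariate it was −0.96 and passed. It did not pass with sex as a covariate (−1.10), among females alone (−1.04), or without animal 2 of L3 (−0.70), animal 1 of L3 (−0.98) or animal 4 of C (−1.04). The identifier of its probe set ends in _x_at, which marks probes that can also match other transcripts.

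LBR, a sterol reductase that also anchors chromatin at the inner nuclear membrane, measured 7.02, 5.05, 7.34 and 7.10 in C, 7.36, 7.93, 6.63 and 6.62 in L and 6.08, 5.01, 5.79 and 7.08 in L3. Animals 1, 2 and 3 of L3 were below all L animals, and animal 4 of L3 lay inside the L range. LBR had a difference of −1.14 ± 0.61 in L3/L (p = 0.0808, exact permutation p = 0.0857), −0.64 in L3/C and 0.51 in L/C. The L3/L difference passed the threshold without animal 4 of L3 (−1.51) or animal 2 of C (−1.14). It was smaller and did not pass with the hybridization controls (−0.80) or sex (−0.91) as a covariate, or without animal 2 of L3 (−0.82). The 3 low L3 animals had controls of 12.63 to 13.52, against 10.43 in animal 4 of L3. LBR was also the dimmest of the 26 genes, with a mean signal of 93.0. TM7SF2, which catalyses the same reduction, averaged 8.24 ± 1.82 in C, 8.97 ± 0.64 in L and 7.89 ± 1.27 in L3. Its levels reached from 5.62 in animal 2 of C to 9.62 in animal 3 of C, so animals of 1 formula spanned more than any difference between formulas. DHCR7, the last reductase of one route to cholesterol, spread from 4.99 to 8.19 among L animals and averaged 6.74 ± 0.56 in C, 6.83 ± 1.56 in L and 6.16 ± 0.90 in L3.

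For the early ring genes the formula means lay close together in the brightest probe sets. SQLE, which adds oxygen to squalene and is a regulated step of the pathway, averaged 9.65 ± 0.43 in C, 9.87 ± 0.24 in L and 9.68 ± 0.39 in L3. LSS, which closes the ring to lanosterol, averaged 7.11 ± 0.65 in C, 7.32 ± 0.62 in L and 7.25 ± 0.88 in L3. MSMO1, the oxidase that starts removal of the ring methyl groups, was even among C animals at 9.50 ± 0.12 and averaged 9.82 ± 0.25 in L and 9.60 ± 0.75 in L3. The p values of these brightest sets were above the threshold in each comparison, and the smallest, for MSMO1 in L/C, was 0.327. Another LSS set, 202245_at, had a mean signal of 148.5, against 149.9 for the brightest. It gave −1.05 in L/C (p = 0.149, exact permutation p = 0.343) and 0.98 in L3/L (p = 0.176, exact permutation p = 0.171). Another SQLE set is described below.

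The remaining ring genes are NSDHL, EBP and SC5D. NSDHL, the dehydrogenase that acts after MSMO1, averaged 7.56 ± 0.68 in C, 7.19 ± 0.35 in L and 7.15 ± 0.68 in L3. EBP, the isomerase that moves a double bond of the ring, was the only one of the 10 with a positive difference in L3/L (0.39, p = 0.208, exact permutation p = 0.171). SC5D, the desaturase of the ring, averaged 8.63 ± 0.30 in C, 8.72 ± 0.42 in L and 8.08 ± 1.04 in L3, where animal 3 was at 6.53 and the other 3 at 8.48 to 8.71.

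Taken array by array, the mean of the 10 genes relative to their mean over 12 arrays was −0.00, −0.29, 0.15 and 0.41 in C, −0.13, 0.25, 0.41 and 0.25 in L and −0.29, −0.69, −0.39 and 0.31 in L3. Animals 1, 2 and 3 of L3 and animal 2 of C were lowest, and animal 4 of L3 was among the highest. The lowest 3 values in L3 fell on arrays with hybridization controls of 12.63, 13.22 and 13.52, the value of 0.31 on the array at 10.43. With the controls as a covariate the median of the list was −0.02 in L3/C and −0.21 in L3/L, with the ACTB ratio −0.16 and −0.30, and with age −0.27 and −0.07. With sex it was −0.05 in L3/C, with 5 of 10 higher, and −0.34 in L3/L, and among females alone it was −0.19 and −0.43. In L3/C it was −0.17 without animal 4 of C, and leaving out animal 1, 2 or 3 of L3 put it at −0.19, −0.11 and −0.13, whereas leaving out animal 4 of L3 put it at −0.68. The mean of 11 oligodendrocyte markers lay at 0.38, −0.44, −0.58 and 0.23 in the 4 L3 animals and at −0.80 in animal 2 of C, so it was low in animals 2 and 3 of L3 but not in animal 1. Their summed signal was 6860 to 16378 in L3, against 8636 to 20350 in L and 7509 to 19805 in C. The mean of 9 microglia markers lay at −0.43, −0.23, −0.20 and 0.52 in the 4 L3 animals and at −0.93 in animal 2 of C, so it was low on the same arrays as the ring genes and high in animal 4 of L3. Their summed signal was 2496 to 4286 in L3, against 2773 to 6741 in L and 1897 to 4669 in C. The part of either cell type in the result was not tested.

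**Figure D3:**
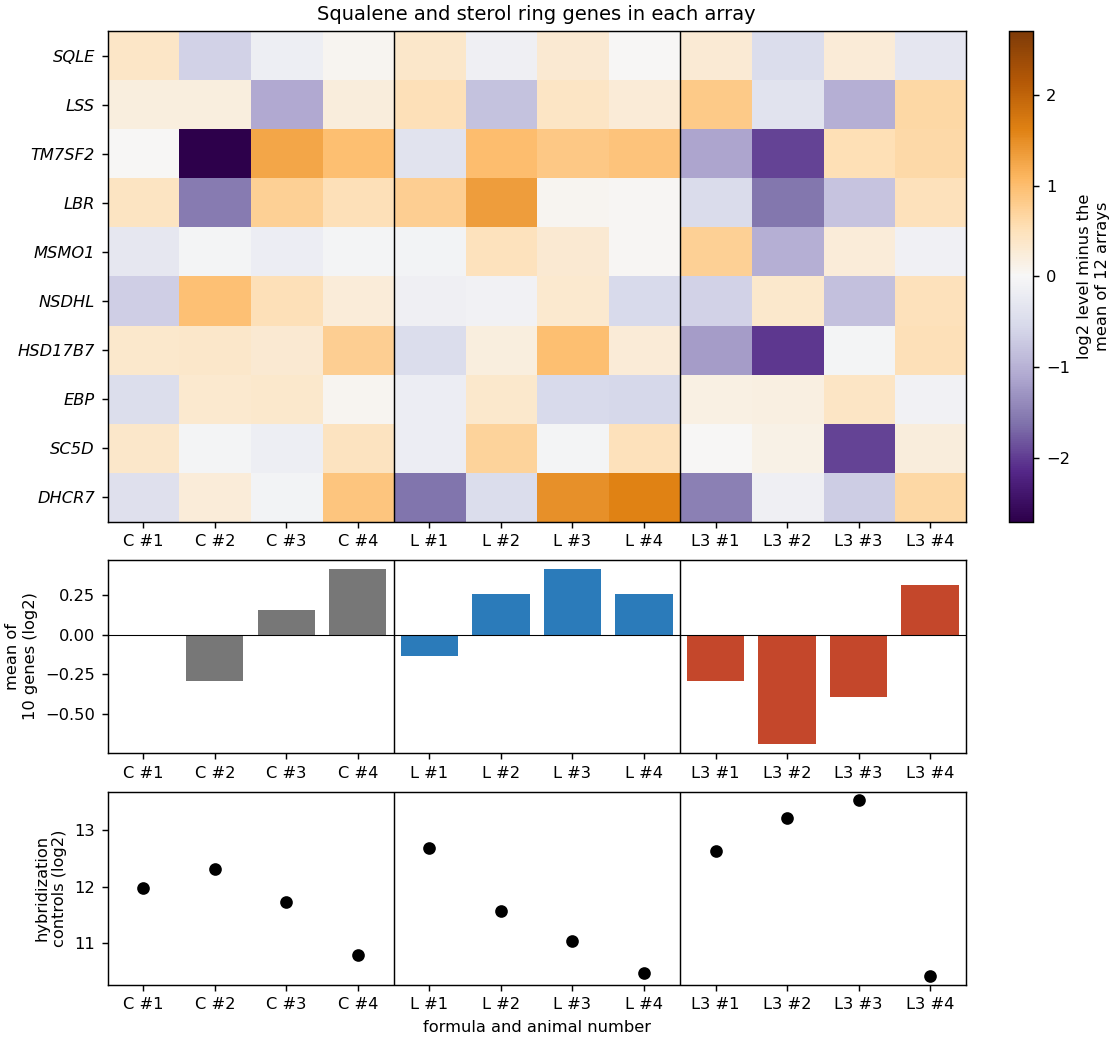
The upper panel shows the log2 level of 10 squalene and sterol ring genes on each of 12 arrays minus the mean of the gene, the middle panel their mean and the lower panel the mean log2 signal of the hybridization controls, with formula and animal number along the bottom. Animals 1, 2 and 3 of L3 have list means of −0.29, −0.69 and −0.39 and high controls, and animal 4 of L3 has 0.31 and the lowest controls.

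The sterol sensing genes (5 of 5 measured) had medians of −0.06 in L/C, 0.09 in L3/C and 0.34 in L3/L. INSIG2, which retains the SCAP and SREBP complex in the endoplasmic reticulum, measured 10.19, 9.63, 9.33 and 9.52 in C, 9.82, 9.29, 8.23 and 8.41 in L and 10.46, 9.13, 10.15 and 9.29 in L3. Animals 3 and 4 of L were the lowest of the 12, and animals 1 and 3 of L3 were above all L animals. In deposited signal this was 833 ± 318 in L3 and 491 ± 241 in L. INSIG2 was higher by 0.82 ± 0.39 in L3/L (p = 0.0499, adjusted p = 0.891 from limma, exact permutation p = 0.143), had a difference of −0.73 in L/C (p = 0.078, exact permutation p = 0.171) and of 0.09 in L3/C. Without animal 1 of L the L/C difference was −1.02 and passed the threshold. The p value of L3/L lay at the threshold. It stayed under 0.05 in 9 of the 27 alternative fits, and it did not with the ACTB ratio (0.46), the controls (0.49) or age (0.39) as a covariate.

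INSIG1, the related retention protein and itself an SREBP target, averaged 9.08 ± 0.29 in C, 9.12 ± 0.51 in L and 9.46 ± 0.51 in L3. SREBF2, the gene of the SREBP that chiefly drives cholesterol synthesis, averaged 9.65 ± 0.41 in C, 9.60 ± 0.42 in L and 9.14 ± 0.60 in L3, with a difference of −0.51 in L3/C (p = 0.147, exact permutation p = 0.2). SREBF1, whose products chiefly drive fatty acid synthesis, averaged 7.47 ± 0.64 in C, 6.84 ± 0.46 in L and 7.69 ± 1.17 in L3. Animal 3 of L3 was at 9.32 and the other L3 animals at 6.80 to 7.74. SCAP averaged 10.28 ± 0.16 in C, 10.35 ± 0.08 in L and 10.26 ± 0.36 in L3. In 11 of the 12 animals its level lay between 10.06 and 10.53.

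The genes of acetyl-CoA supply, esterification, transport and turnover (4 of 4 measured) had medians of −0.15 in L/C, 0.04 in L3/C and 0.38 in L3/L, with 0 past the threshold. SOAT1, which esterifies cholesterol for storage, measured 8.93, 8.23, 8.29 and 8.33 in C, 8.68, 8.31, 8.10 and 8.47 in L and 8.80, 9.83, 8.70 and 8.66 in L3. Animal 2 of L3 stood above the other 11, animal 4 of L3 was just below animal 1 of L, and animal 1 of C lay among the L3 animals. SOAT1 was higher by 0.61 ± 0.34 in L3/L (p = 0.0892, exact permutation p = 0.0571) and by 0.55 ± 0.34 in L3/C (p = 0.119, exact permutation p = 0.114). Without animal 2 of L3 the L3/C difference was 0.27, and over the alternative fits the L3/L difference ran from 0.15 to 0.77.

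ACAT2, the cytosolic thiolase that supplies acetoacetyl-CoA, averaged 9.83 ± 0.49 in C, 9.61 ± 0.18 in L and 9.61 ± 0.48 in L3. STARD4, a cytosolic carrier of sterol, spread from 6.93 to 10.35 among C animals, from 6.61 to 8.93 among L animals and from 8.18 to 9.60 among L3 animals. CYP46A1, the neuronal hydroxylase through which the brain clears cholesterol, averaged 10.21 ± 0.58 in C, 10.12 ± 0.82 in L and 10.31 ± 0.10 in L3. Its differences were −0.09 in L/C, with a 95% interval from −0.85 to 0.67, 0.10 in L3/C, from −0.66 to 0.86, and 0.19 in L3/L, from −0.57 to 0.95.

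Probe sets of the same gene often disagreed. Of the 14 genes with several probe sets, all sets had the same sign for 3 in L/C (IDI1, GGPS1 and SC5D), for 4 in L3/C (these and DHCR7) and for 3 in L3/L (GGPS1, SC5D and SREBF2). The 4 sets of IDI1 gave 0.32 to 0.45 in L/C and 0.39 to 0.54 in L3/C. Of these, 208881_x_at, 204615_x_at and 242065_x_at carry the suffix of probes that can also match other transcripts. Whether they measure IDI1 independently was not tested. The 2 sets of SC5D gave 0.09 and 0.12 in L/C. Both GGPS1 sets were higher in L/C, by 0.73 and 1.20. MVK ran from −0.76 to 1.28 in L3/C over 4 sets, and SREBF2 from −0.51 to 0.93 over 3.

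Counted over the 52 probe sets, the unadjusted threshold was passed by 0 in L/C, 2 in L3/C and 3 in L3/L, against 2.42%, 4.26% and 5.4% of all probe sets. The sets beyond the brightest ones were SQLE 213562_s_at and EBP 213789_at. SQLE 213562_s_at measured 8.64, 8.51, 8.56 and 9.24 in C, 8.41, 9.18, 8.96 and 8.94 in L and 7.86, 6.35, 7.44 and 8.95 in L3. It was lower by 1.09 in L3/C (difference −1.09, p = 0.0278, exact permutation p = 0.114) and by 1.22 in L3/L (difference −1.22, p = 0.0151, exact permutation p = 0.0857). EBP 213789_at measured 7.50, 8.40, 8.61 and 7.48 in C, 7.79, 8.45, 8.10 and 8.25 in L and 6.64, 6.74, 6.68 and 8.31 in L3, with −1.06 in L3/L (p = 0.0338, exact permutation p = 0.114). In both, as for HSD17B7, animals 1, 2 and 3 of L3 were low and animal 4 lay among the other formulas, while the brightest sets of SQLE and EBP gave −0.19 and 0.39 in L3/L. The 3 low arrays are again those with hybridization controls of 12.63 to 13.52, against 10.43 in animal 4 of L3, so the 3 probe sets are not independent of each other.

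Groups that did not overlap were found for 1 of the 52 probe sets in L/C, 1 in L3/C and 0 in L3/L, against 2.1%, 2.21% and 2.66% of all probe sets. SOAT1 221561_at measured 7.05, 7.70, 6.88 and 7.16 in L and 5.32, 6.23, 6.01 and 6.60 in C, a difference of 1.15 (p = 0.0567, exact permutation p = 0.0286). INSIG1 201625_s_at measured 7.26, 6.75, 7.15 and 6.91 in L3 and 7.94, 7.91, 7.28 and 8.22 in C, a difference of −0.82 (p = 0.144, exact permutation p = 0.0286). Its deposited signals overlapped, at 96.3 to 156.8 in L3 and 107.2 to 260.2 in C, while those of SOAT1 221561_at did not, at 97.4 or more in L and 73.8 or less in C. The brightest sets of both genes gave the other sign, −0.05 for SOAT1 in L/C and 0.38 for INSIG1 in L3/C. The dimmest SOAT1 set, 244661_at, which is the one the study lists, measured 6.88, 4.79, 5.70 and 4.75 in C, 5.01, 5.94, 4.53 and 4.82 in L and 4.26, 4.38, 4.42 and 6.42 in L3. Its differences were −0.46 in L/C (exact permutation p = 0.6), −0.66 in L3/C (0.371) and −0.20 in L3/L (0.629), at a mean signal of 26.4.

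**Figure D4:**
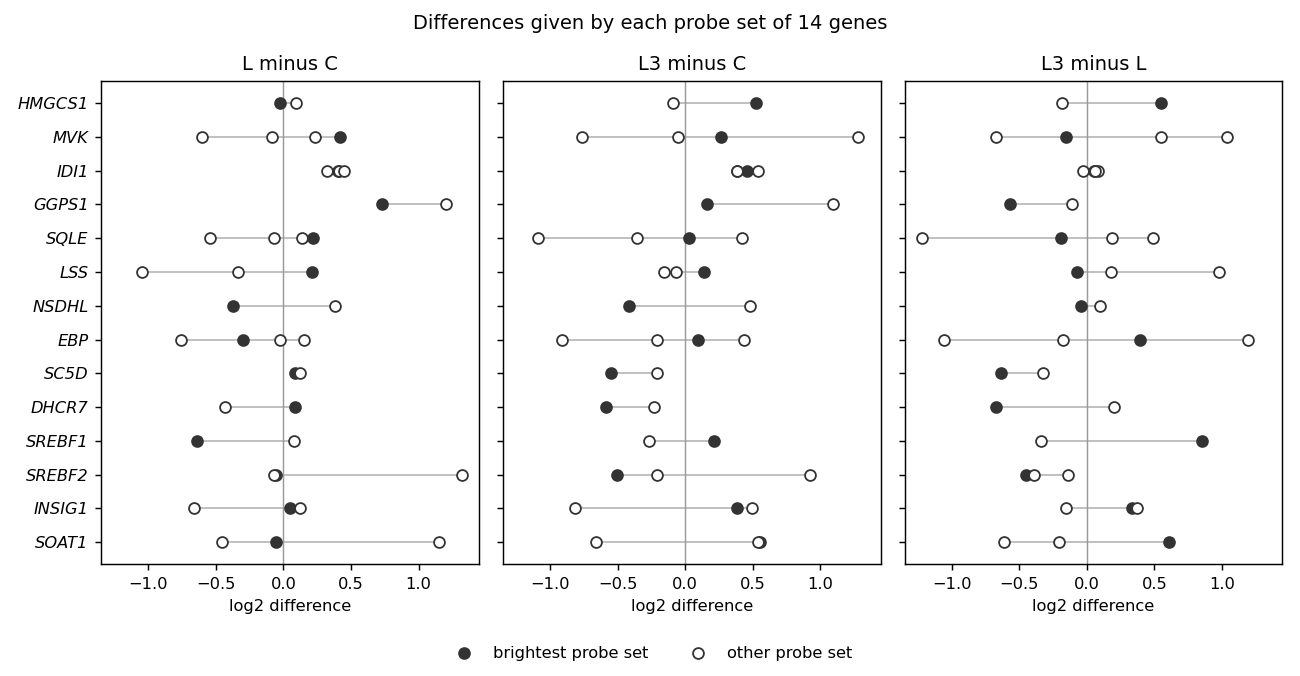
Log2 differences (horizontal axis) given by each probe set of the 14 genes with several sets, for L minus C, L3 minus C and L3 minus L, with the brightest set filled and a grey line from the lowest to the highest. Sets of 1 gene lie on both sides of 0 for 11 genes in L minus C, and the 4 sets of IDI1 lie close together.

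Correlations between the genes among animals of the same formula were centred on 0. Over the 325 pairs of genes, the median correlation of deviations from the formula means was 0.00 (12 arrays, which share the array of each animal), and 50.2% of pairs were above 0. Over all pairs of genes the median was also 0.00, with 50.4% above 0. Within formulas the standard deviation of a gene was 0.59 in the median, against 0.65 for all genes, and it ran from 0.23 for SCAP to 1.34 for TM7SF2.

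Other genes around the pathway gave few differences past the unadjusted threshold. Of all genes, 0.895% were higher and 1.23% lower in L/C at that threshold. These shares were 1.72% and 2.21% in L3/C and 2.61% and 2.55% in L3/L. Whether a list held more such genes than these shares was not tested. Of 11 genes of SREBP cleavage and sterol-driven degradation measured among 14 listed, 1 was lower in L/C and 1 higher in L3/L, in both cases ERLIN1, an endoplasmic reticulum protein of the machinery for regulated degradation. ERLIN1 had a difference of −0.76 ± 0.36 in L/C (p = 0.0479, exact permutation p = 0.114) and of 0.83 ± 0.36 in L3/L (p = 0.034, exact permutation p = 0.0857). Of 15 of 17 genes of sterol uptake and movement, 1 was lower in L/C, LRP8, a receptor for apolipoprotein E and reelin, by 0.58 (difference −0.58, p = 0.0304, exact permutation p = 0.0857). By sign 6 of the 15 genes of sterol uptake and movement were higher in L/C, 3 in L3/C and 4 in L3/L. Over all genes 46.6%, 46.9% and 49.9% were higher. Of 8 of 9 oxysterol and ester enzymes, 0 passed in any comparison.

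Among 13 of 14 genes of the isoprenoid branches that do not lead to sterol, 11 were higher in L/C and 10 in L3/C by sign, with medians of 0.22 and 0.17. PGGT1B, a subunit of the enzyme that attaches geranylgeranyl groups to proteins, was the 1 past the threshold, with 1.48 ± 0.67 in L3/C (p = 0.0427, exact permutation p = 0.0286). Among 10 of 11 fatty acid and acetyl-CoA genes under SREBP control, 1 was lower in L3/C, ACSS2, which makes acetyl-CoA from acetate (difference −0.52, p = 0.0366, exact permutation p = 0.0857). No measured gene of these 5 lists reached an adjusted p under 0.05 in limma.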

How the data were processed

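RNA from the precentral gyrus of 12 baboons, 4 for each formula, was measured on HG-U133 Plus 2.0 arrays. Groups, animal numbers, sex and age came from the sample records. The authors deposited the MAS5 signal of 54675 probe sets for each array, an intensity on a linear scale that GCOS computed from perfect match and mismatch probes and scaled to a common trimmed mean (250.01 to 250.02 after trimming 2% at either end). The methods describe RMA, and the deposited values are not RMA values, so the group comparison was run on the signals.

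After removal of 62 control probe sets, log2(signal + 16) was computed for the other 54613, the arrays were brought to a common distribution by quantile normalization, and limma fitted the 3 group means (9 residual degrees of freedom) with a trended empirical Bayes variance. Adding 16 makes differences of dim probe sets smaller. Members were found through the platform annotation, in which 41091 probe sets have 1 symbol, 1801 several and 11721 none, and which gives no position on a genome. For 26 of 28 genes the symbol is also in the RefSeq annotation of the baboon, whose match to the probes was not examined. Precision rests on 4 arrays per formula. Genes given array by array have a p under 0.05, or are among the 3 smallest of a comparison, in the brightest probe set. The SOAT1 probe set the study lists was added, and the one of FDFT1 has no symbol in the annotation used. Members, lists and tests were chosen with earlier results of these data known.

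Alternatives were other normalizations, pseudocount 1, brighter probe sets only, other variance models, only the arrays compared, covariates (sex, age, the ACTB ratio, the hybridization controls), females only, array weights, the animal number as a block, all probe sets of the members, each array left out in turn and, chosen after seeing the data, without the 3 arrays of highest ACTB ratio. Scripts were tested on simulated data. Software was R 4.3.3 with limma 3.58.1 and Python 3.11.15, pandas 2.3.3 and numpy 2.4.6.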

Additional observations from a re-analysis of the deposited data

Results flagged for a closer look

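In 9 of the 78 sets of 4 animals (26 genes in 3 formulas), 1 animal lay far from the other 3 of its formula. The rule is meant to flag about 1 in 20 such sets by chance, which is a theoretical rate. The share of all genes that the rule flags on these arrays was not computed. Whether 9 of 78 is more than for other genes was therefore not tested. Values are quantile normalized log2 levels. Among C animals, LSS was 6.14 in animal 3 against 7.43 to 7.46 in the others, LBR was 5.05 in animal 2 against 7.02 to 7.34, HSD17B7 was 9.61 in animal 4 against 9.14 to 9.21, and SOAT1 was 8.93 in animal 1 against 8.23 to 8.33.

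Among L animals, animal 1 was low for TM7SF2 (8.004, with the others at 9.21 to 9.37) and for CYP46A1 (8.90, with the others at 10.39 to 10.65), and animal 4 was low for STARD4 (6.61, with the others at 8.65 to 8.93). Animal 1 of L had a ratio of 3′ to 5′ ACTB signal of 11.0. Among L3 animals, animal 3 was low for SC5D (6.53, with the others at 8.48 to 8.71) and animal 2 was high for SOAT1 (9.83, with the others at 8.66 to 8.80). The hybridization controls of these L3 animals were 13.52 and 13.22.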

How the results depend on the processing

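Precision is limited by 4 animals per formula. The number of the 26 genes with an unadjusted p under 0.05 was 0 in L/C, 1 in L3/C, 1 in L3/L and 0 among the 3 formulas. Of all probe sets 2.42%, 4.26%, 5.4% and 3.67% passed in the same order. With array weights these shares were 5.05%, 4.38%, 7.69% and 5.47%. Without animal 1 of L they were 3.05%, 5.21%, 7.6% and 5.03%. Without animal 4 of L3 they were 2.44%, 7.9%, 9.95% and 6.82%. In L/C the number of genes was 1 with no further normalization, with array weights and without the 3 arrays of highest ACTB ratio. In L3/C it was 0 with ordinary variance, sex or the controls as a covariate, females only and without those 3 arrays, 2 with age as a covariate and 2 over all 52 probe sets. In L3/L it was 0 with pseudocount 1, brighter probe sets only, no variance trend, ordinary variance, only the 8 arrays compared, females only and the ACTB ratio or the controls as a covariate, 4 with array weights and 3 over all probe sets. Among the 3 formulas it was 1 with age as a covariate, over all probe sets and without the 3 arrays, and 2 with array weights. Leaving out each array in turn gave 0 to 2 in L/C (2 without animal 3 of C, 1 without animal 1 of L), 0 to 2 in L3/C (0 without animal 4 of C, animal 1 or animal 2 of L3, 2 without animal 1 of C or animal 4 of L3), 0 to 4 in L3/L (3 without animal 1 of L, 4 without animal 4 of L3, where 9.95% of all probe sets passed, and 0 without animals 1, 3 or 4 of C, 3 or 4 of L or 1 of L3) and 0 to 2 among the 3 formulas (2 without animal 1 of L, 1 without animal 3 or 4 of L3).

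Animals with the same number did not deviate together in every pair of formulas (correlations of −0.09 to 0.33), and the records give the numbers no meaning, so they were taken as labels. The numbers did share technical values, since the ACTB ratio was highest in animal 1 of each formula, the ACTB ratio and the controls were lowest in animal 4 of each formula, and the correlations of animals 1 and 4 were 0.14 to 0.33 in all pairs of formulas. Whether a number marks a batch was not tested. With the replicate block the counts were 1 in L/C, 2 in L3/C, 3 in L3/L and 3 among the 3 formulas. Of all probe sets 3.11%, 5.19%, 7.01% and 4.94% passed with the block, in the same order. HMGCS1 in L3/C (0.53), HSD17B7 in L3/L (−0.94) and INSIG2 in L/C (−0.73) passed the unadjusted threshold with the block.

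The median difference of the 26 genes in L/C, 0.06, ran from −0.045 without animal 2 of L to 0.171 without the 3 arrays of highest ACTB ratio, and was also below 0 with brighter probe sets only (−0.027) and without animal 2 of C (−0.04). In L3/C it was −0.21 with each array centred on its median, which moved the median of all probe sets to −0.12, and 0.27 in females only, and −0.091 to 0.107 leaving out each array in turn, with −0.091 without animal 1 of L3. In L3/L it was −0.35 with median centring (all probe sets −0.13) and 0.11 with age as a covariate. The sign of a gene held under all alternative fits that included it for 11 genes in L/C, 13 in L3/C and 14 in L3/L. There were 27 such fits, or 26 for MVD, LBR and DHCR7, which were not among the brighter probe sets. Several of these fits leave the difference itself as it was and cannot turn a sign. They are the variance models, brighter probe sets only, only the arrays compared, the replicate block and leaving out an array of the formula not compared. The cause of the changes in median and sign was not tested.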
